A study of Mus musculus with 10 samples.

Results

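DNA repair and damage checkpoint genes were examined in 5 mouse mammary tumour cell lines. The list held 46 genes, chosen by what their products do. A member counted as measured when a probe set annotated with that single symbol lay above the 40th percentile of its array on at least 2 arrays. This left 43 of the 46, with 91 of their 103 probe sets, among 14840 genes measured in all. Ercc6 did not pass (its highest signal on any array was 21.8), Xrcc2 had no probe set of that symbol here, and the probe sets of Tdg carried other symbols besides and were not used.

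The epithelial line, E, came from a mammary adenocarcinoma that arose in a female FVB/N-TgN(MMTVneu)202Mul mouse, whose transgene puts the neu oncogene under the promoter of the mouse mammary tumour virus. The 4 mesenchymal lines, M1 to M4, were each grown out of a relapsed tumour in a female FVB/N mouse that had received E cells. All 5 lines therefore descend from the same transgenic tumour and were grown in the same serum-containing RPMI medium; the labels name no DNA-damaging agent. Each line was measured on 2 arrays, so a line is 1 line and not a group of tumours, and the sources used here do not say if its 2 arrays stand for separate cultures.

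Cells remove DNA damage by several routes. Nucleotide excision repair cuts out bulky and ultraviolet lesions, base excision repair replaces single damaged bases and seals nicks, and mismatch repair corrects replication errors. Double-strand breaks are joined end to end or copied from a sister chromatid by homologous recombination, the Fanconi anaemia proteins unhook crosslinks, and the ATM and ATR kinases with their targets Chk1 and Chk2 halt the cycle while repair proceeds. Transcripts of recombination and ATR-branch genes are known to peak with DNA synthesis in S phase, while many excision and ligation genes are transcribed throughout the cycle.

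The 4 members with the largest mean changes from E to the M lines were also the 4 that fell in each M line. Their promoters are shown because of the size of those mean changes. They run from 250 bases before to 50 bases after the gene start, on the gene's strand, from RefSeq on GRCm38.p6: Ercc1 at chr7:19344821-19345120, plus strand, Fancc at chr13:63431696-63431995, minus strand, Lig3 at chr11:82780859-82781158, plus strand and Trp53bp1 at chr2:121271358-121271657, minus strand. Capitals mark the only matches to the motifs searched.
Ercc1: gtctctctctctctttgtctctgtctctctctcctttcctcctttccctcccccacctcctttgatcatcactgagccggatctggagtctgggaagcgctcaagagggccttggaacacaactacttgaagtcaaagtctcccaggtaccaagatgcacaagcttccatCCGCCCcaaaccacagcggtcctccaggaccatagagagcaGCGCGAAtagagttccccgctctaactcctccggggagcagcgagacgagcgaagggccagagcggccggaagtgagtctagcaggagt
Fancc: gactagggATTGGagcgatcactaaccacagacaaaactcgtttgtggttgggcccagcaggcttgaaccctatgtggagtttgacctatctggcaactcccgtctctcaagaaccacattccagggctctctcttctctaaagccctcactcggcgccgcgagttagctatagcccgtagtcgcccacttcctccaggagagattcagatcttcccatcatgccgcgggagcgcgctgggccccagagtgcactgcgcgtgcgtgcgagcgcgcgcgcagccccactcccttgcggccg
Lig3: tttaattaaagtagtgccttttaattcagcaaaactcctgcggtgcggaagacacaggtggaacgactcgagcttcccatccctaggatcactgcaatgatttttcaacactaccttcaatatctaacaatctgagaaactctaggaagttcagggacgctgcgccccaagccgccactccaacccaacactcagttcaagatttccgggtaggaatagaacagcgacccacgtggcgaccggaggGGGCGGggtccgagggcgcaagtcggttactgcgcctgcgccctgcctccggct
Trp53bp1: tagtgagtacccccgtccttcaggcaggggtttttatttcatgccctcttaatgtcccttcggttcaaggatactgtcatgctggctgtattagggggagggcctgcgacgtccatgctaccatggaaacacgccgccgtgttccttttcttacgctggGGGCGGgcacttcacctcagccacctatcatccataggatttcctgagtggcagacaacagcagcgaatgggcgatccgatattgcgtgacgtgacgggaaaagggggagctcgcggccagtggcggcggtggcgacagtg

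The motifs searched on both strands were the E2F type (TTCCCGC, with TTGGCGC counted as well, and likewise the form TTCGCGC), the NF-Y type (CCAAT), the CHR element (TTTGAA) and the Sp1 type (GGGCGG). Ercc1 held 1 E2F-type and 1 Sp1-type match, Fancc 1 NF-Y-type match, and Lig3 and Trp53bp1 1 Sp1-type match each, so no motif was common to the 4. A RefSeq promoter was found for 36 of the 46 members. Of these, 17 held an E2F-type match, against 9.2% of 27025 genes with a promoter in the table, and 25 held an Sp1-type match, against 38.2%. An NF-Y-type match was held by 21 of the 36, against 41.1%, and a CHR match by 1, against 20.2%. The E2F-type share was 9 of 18 among members that fell in M3 and 8 of 16 among other measured members. These matches describe letters in the window and not binding.

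Array scales differed: the median signal ran from 22.8 to 35.8 and was highest on E replicate 1. The median log2 change of all genes from E to the mean of M1 to M4 was -0.21 on the deposited scale and 0.04 after quantile normalization, so changes of members are read against these values. Of 6 epithelial markers all fell in every M line, and of 6 mesenchymal markers 5 rose in every M line. The sixth, Vim, was not called, and its mean signal was lower in M3 (7488) than in E (9644). Epcam, an epithelial adhesion protein, had a mean signal of 10360 in E and 2.25 to 3.55 across M1 to M4, and Zeb1, a mesenchymal transcription factor, had 11.1 in E and 567 to 1369 across them. Summed over 7 leukocyte markers, the signal was 211 to 218 on the E arrays and 280 to 426 on the M arrays, with 3 of the 7 over 100 on any array. The line means of Ptprc were at or below 15.1, and those of Csf1r were 75.0 to 96.8. Means of Cd68 ran from 57.0 in E to 133 in M4, and those of Lyz2 from 34.4 in E to 120 in M3. Against E, 1 leukocyte marker was called higher in M3 and none in the other M lines. None of 4 endothelial or 2 adipocyte markers passed 100, and 1 endothelial marker was called higher in M2. The sum of 3 skeletal muscle markers was 72.1 to 88.0 in E, 213 to 253 in M1, 134 to 192.5 in M2, 64.8 to 83.1 in M3 and 87.6 to 109.6 in M4. Of the 3, 1 passed 100, 2 were called higher in M1 and 1 was called higher in M2. Their part in the results below was not tested. In RNA from a whole culture, fewer cells with a transcript and less transcript per cell cannot be told apart.

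The first comparison asked how repair and checkpoint genes differed between the relapsed mesenchymal lines and the epithelial line they came from. Ercc1, Fancc, Lig3 and Trp53bp1 fell in every M line, with log2 changes from -1.42 (Trp53bp1 in M2) to -3.38 (Ercc1 in M3). Over all genes 9.02% fell in every M line, near the share of members that did. A further set fell most in M3, among them Chek1, Brca1, Rad54l, Blm and Msh6, and Ddb2 and Xpc fell in M1 and M4. No member rose under the deposited scaling. Each value was taken as log2(signal + 32), which understates changes of dim genes, and a gene was called, and is said to have risen or fallen, when its adjusted p in limma was under 0.05 and its change at least 2-fold.

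**Figure D1:**
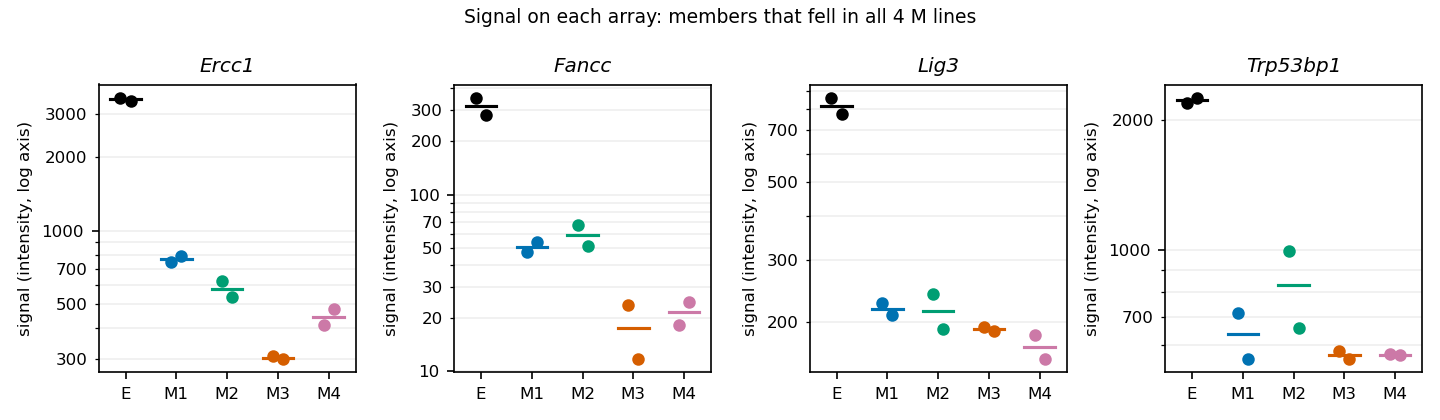
Signal of Ercc1, Fancc, Lig3 and Trp53bp1 on each of the 10 arrays (points; bars are the mean of the 2 arrays of a line), on a log axis of intensity. In all 4 panels the 8 M arrays lie below both E arrays.

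On average over the 4 M lines, 11 of 43 members fell relative to E (25.6%), against 14.5% of all genes, and 0 rose, against 7.34%. With limma's unadjusted p under 0.05 as the sole criterion, 32 members were lower and 1, Mgmt, was higher, against 45% and 18.5% of all genes. The median change over the members was -0.54, against -0.21 over all genes. After quantile normalization 4 members fell (9.3%), against 8.83% of all genes, 0 rose, against 9.64%, and the members' median was -0.16 against 0.04. The share of members that fell was thus above the background under the deposited scaling and near it after quantile normalization. The 8 M arrays lay below both E arrays for 22 members, against 30.9% of all genes, and above both for none, against 10.8%.

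The 4 that were called under both scalings were Ercc1, Fancc, Lig3 and Trp53bp1. When limma was fitted to the 5 line means, E was a single value and the spread came from the M lines alone, so E was assumed to vary as they do. The adjusted p was then 0.0161 for Ercc1, 0.0107 for Fancc, 0.0119 for Lig3 and 0.0221 for Trp53bp1. For the other 7 called members it ran from 0.105 to 0.432. Elsewhere the p-values rest on the spread between a line's own 2 arrays, and that spread may be technical.

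**Figure D2:**
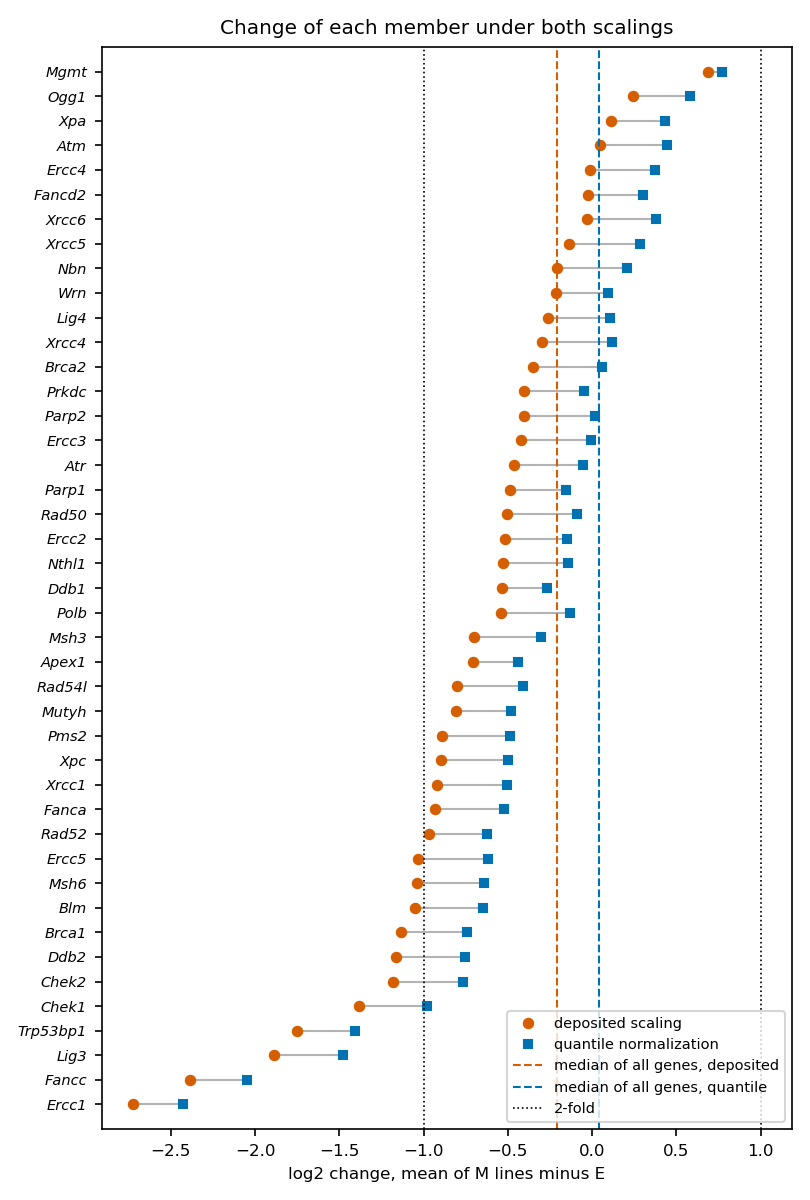
Log2 change of each of the 43 members averaged over the 4 M lines relative to E, with the deposited scaling (circles) and after quantile normalization (squares); dashed lines are the medians of all genes and dotted lines the 2-fold limits. Ercc1, Fancc, Lig3 and Trp53bp1 lie beyond -1 under both scalings.

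Against E, 8 members fell in M1 (12.5% of all genes fell there), 5 in M2 (11.8%), 18 in M3 (19.8%) and 15 in M4 (20.1%). None rose in any line, against 8.60%, 8.58%, 7.70% and 6.65% of all genes. By that unadjusted criterion 7 members were higher and 18 lower in M1, 2 and 22 in M2, 2 and 34 in M3, and 0 and 37 in M4. Over all genes 20.8% were higher and 33.7% lower in M1, 19.6% and 35.1% in M2, 17.1% and 44% in M3, and 13.4% and 49.5% in M4. After quantile normalization the counts of falls were 5, 4, 12 and 5, with 9.40%, 8.75%, 11.7% and 9.51% of all genes. Xrcc6 then rose in M1 and Mgmt in M3, with 10.2%, 10.1%, 12.1% and 10.4% of all genes rising in M1, M2, M3 and M4. The share of members that fell in M3 (27.9%) was then still above its background, while in M1 and M4 it was 11.6% and in M2 9.3%. With the mean of a gene's probe sets, calls were lost for Fancc in M1 and M2, Trp53bp1 in M2, Msh3 (-0.96) and Pms2 (-0.78) in M3, and Atr (-0.85), Chek1 (-0.83) and Fanca (-0.81) in M4. The 4 contrasts share the 2 E arrays. Of the 43 members, 23 fell in at least 1 line and 10 in a single line, and these shares were not taken over all genes. In all 4 lines 4 members fell, near the 9.02% of all genes that did, and 0 rose, against 4.23%.

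**Figure D3:**
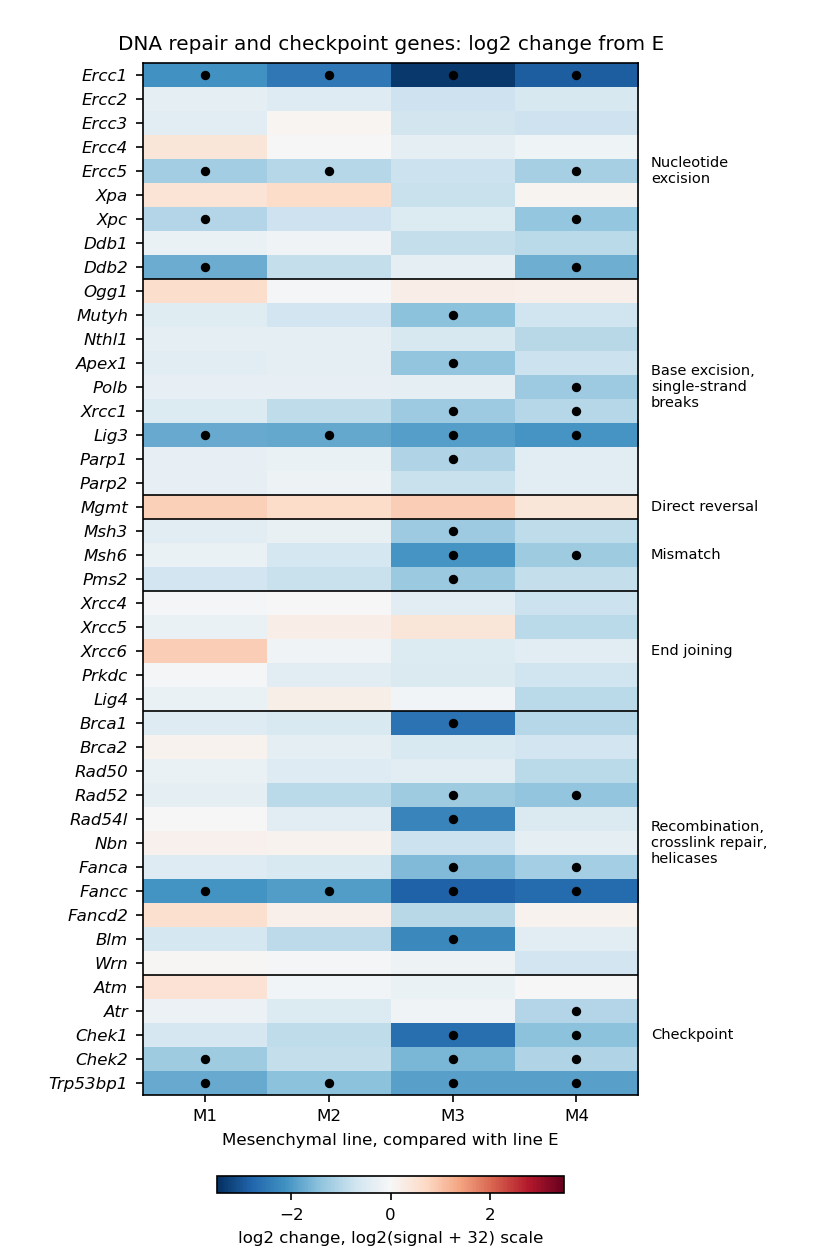
Heat map of the log2 change of each of the 43 members (rows, grouped by role) in each M line against E (columns); black dots mark calls. Ercc1, Lig3, Fancc and Trp53bp1 have dots in all 4 columns, and 8 members have a dot in the M3 column alone. The share of all genes called in M3 alone was not taken.

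Nucleotide excision repair held the member with the greatest change, while the gene of its nuclease partner was not called in any line. Of 9 measured genes, Ercc1, Ercc5 and Ddb2 fell in the mean contrast and none rose, against 14.5% and 7.34% of all genes. After quantile normalization 1 of the 9, Ercc1, fell, against 8.83% of all genes. Ercc1 encodes the subunit that holds the XPF nuclease on DNA for the cut 5' of a lesion. Its signal was 3508 and 3405 in E, 746 and 786 in M1, 624 and 535 in M2, 308 and 298 in M3 and 410.3 and 478 in M4. The groups did not overlap, and M3 was the lowest line. The change was -2.73 ± 0.12 (SE) in the mean of the M lines (adjusted p = 2e-25, limma), with -2.13 (M1), -2.52 (M2), -3.38 (M3) and -2.88 (M4). A second Ercc1 probe set changed by -2.29 and was called in each line, and another, with a mean signal of 26.7 in E, was not called.

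Ercc4 encodes XPF, the catalytic subunit of that nuclease. Its signal was 187 and 129 in E, 194 and 245 in M1, 175 and 141 in M2, 119.8 and 117 in M3 and 127 and 147 in M4, with M1 above and M3 below both E arrays. The change was -0.013 ± 0.14 (adjusted p = 0.944, limma), its sign turned under all 3 other scalings (0.37 after quantile normalization), and none of its 4 probe sets was called. The dimmer ones, with mean signals of 61.6 to 67.8 in E, changed by -0.29, -0.57 and -0.38. The changes in single lines were 0.41 (M1), 0.011 (M2), -0.32 (M3) and -0.16 (M4).

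Ercc5 encodes XPG, the nuclease that cuts 3' of the lesion. Its signal was 341 and 262 in E, 129 and 92.5 in M1, 152 and 116 in M2, 155 and 173 in M3 and 117 and 117 in M4. All M arrays lay below both E arrays. The change of -1.04 ± 0.14 (adjusted p = 8.53e-09, limma) only just passed 2-fold. The call was lost on quantile scaling (-0.62) and without E replicate 1 (-0.87), M1 replicate 2 (-0.9901) and M2 replicate 2 (-0.9964). In M2 alone its call (-1.005) was lost without E replicate 1 or M2 replicate 2, and in M4 without E replicate 1.

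The damage sensors Ddb2 and Xpc were lowest in M1 and M4. Ddb2 encodes the subunit that recognises ultraviolet photoproducts and is a known p53 target. The Ddb2 signal was 325 and 276 in E, 59.2 and 75.4 in M1, 154 and 156 in M2, 222 and 234 in M3 and 58.2 and 80.2 in M4, so the M1 and M4 arrays lay far below the others and M3 stood nearest to E. Its changes were -1.75 (M1), -0.83 (M2), -0.35 (M3) and -1.72 (M4), with falls in M1 and M4, and both of its probe sets gave the same calls. In the mean contrast the change was -1.16 ± 0.14 (adjusted p = 2.21e-10, limma), was not called after quantile normalization (-0.76), and the falls in M1 (-1.44) and M4 (-1.18) held there.

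Xpc encodes the protein that detects distorted DNA across the genome. For Xpc the signal was 221 and 214 in E, 86.4 and 96.3 in M1, 131 and 109 in M2, 146 and 146 in M3 and 68.2 and 61.7 in M4. All M arrays were below E, and M4 was the lowest line. It fell in M1 (-1.02) and M4 (-1.36), but neither call held after quantile normalization (-0.73 and -0.82), and the M1 call was lost without E replicate 1 or M1 replicate 1. In the mean contrast the change was -0.90 ± 0.13, below the fold limit.

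Xpa, which encodes the scaffold that checks the lesion before the cuts, was lowest in M3. Xpa signals were 92.6 and 97.7 in E, 144 and 147 in M1, 171 and 162 in M2, 43.1 and 40.7 in M3 and 109 and 98.8 in M4. M1 and M2 lay above E, M3 below it, and M4 close to it. Its change in the mean contrast was 0.11 ± 0.13 (adjusted p = 0.501, limma), and no single line was called against E. Ercc2 and Ercc3, the helicases of TFIIH, changed by -0.52 and -0.42, and Ddb1, the partner of Ddb2, by -0.54; none of these was called in any line with all arrays, and Ddb1 was in M4 without E replicate 2 (-1.05).

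**Figure D4:**
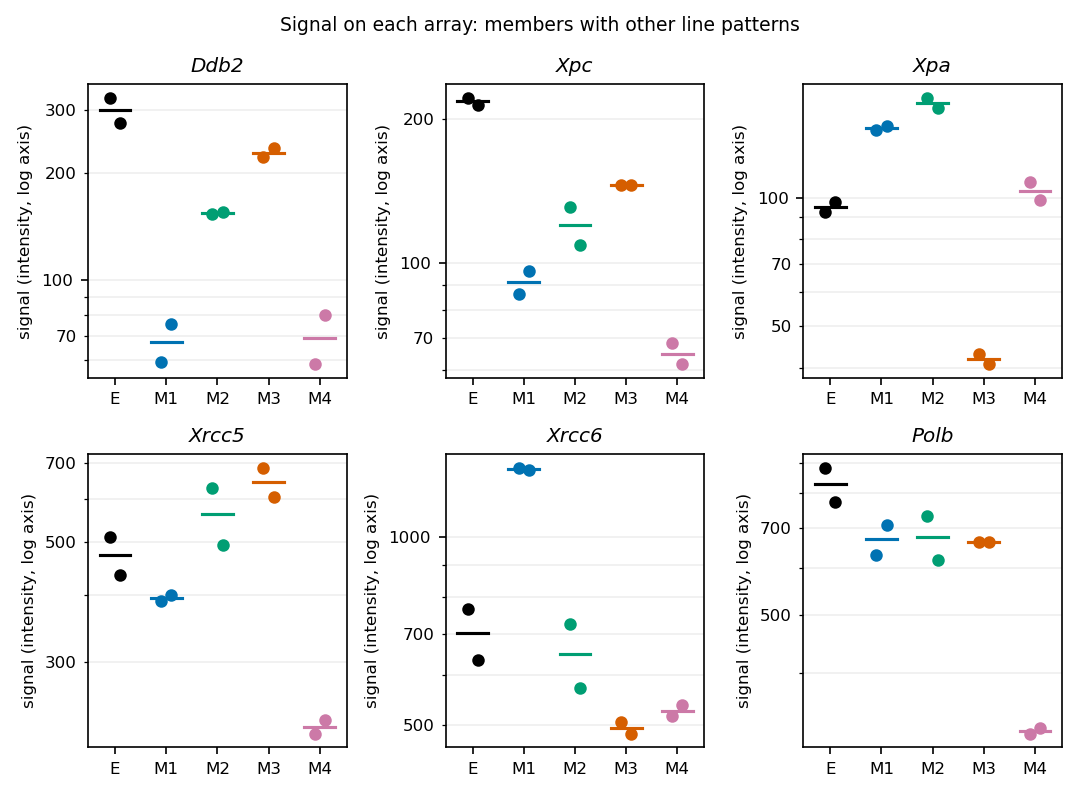
Signal of Ddb2, Xpc, Xpa, Xrcc5, Xrcc6 and Polb on each of the 10 arrays (points; bars are line means), on a log axis of intensity. Ddb2 is lowest in M1 and M4, Xpa in M3, Xrcc5 and Polb in M4, and Xrcc6 is highest in M1.

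In base excision and single-strand break repair, Lig3 fell in every line, Xrcc1 in M3 and M4, Mutyh, Apex1 and Parp1 in M3 and Polb in M4. Of 9 measured genes, Lig3 alone was called in the mean contrast, where 14.5% of all genes fell and 7.34% rose. Lig3 encodes DNA ligase III, which seals nicks and is the ligase of mitochondria. Its signal was 863 and 775 in E, 227 and 209 in M1, 240.0 and 191 in M2, 194 and 189 in M3 and 185 and 157 in M4, with the groups apart and the M lines close together. The change was -1.89 ± 0.13 (adjusted p = 1.3e-17, limma) and -1.48 after quantile normalization. Among its 5 probe sets, 4 were called, with changes of -1.56 to -2.09, and the fifth had a mean signal of 25.9 in E. On this brightest probe set the 4 M lines had the smallest spread of any member, with a range of 0.30 (adjusted p = 0.315, limma F test). The next brightest, with a mean signal of 719 in E, changed by -1.69 (M1), -2.08 (M2), -2.71 (M3) and -1.88 (M4). Its difference among the M lines was called, so the closeness of the lines rests on 1 probe set.

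Xrcc1 encodes the scaffold that holds ligase III at a nick. Its signal was 371 and 320.0 in E, 232 and 243 in M1, 222 and 128 in M2, 120.4 and 125 in M3 and 145 and 165 in M4. No M array reached the E arrays. It fell in M3 (-1.28) and M4 (-1.01), and both calls were lost after quantile normalization (-0.75 and -0.40); the M4 call was also lost without E replicate 1 or M4 replicate 1. The mean change of -0.92 ± 0.14 was not called, but was without E replicate 2 (-1.01) or M2 replicate 1 (-1.001). Without M2 replicate 1 it was also called in M2 (-1.23).

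Parp1 encodes the sensor that marks strand breaks with poly(ADP-ribose). Its signal was 2057 and 1616 in E, 1452 and 1546 in M1, 1648 and 1453 in M2, 848 and 877 in M3 and 1341 and 1450.3 in M4. M3 stood apart at the low end, while M2 replicate 1 overlapped E. It fell in M3 alone (-1.05), a call that was lost without E replicate 1 (-0.88) and after quantile normalization (-0.60). Its relative Parp2 changed by -0.40 in the mean contrast and was called in no line.

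Apex1 encodes the endonuclease that cuts at sites that have lost a base. Its signal was 3943 and 3346 in E, 2788 and 2861 in M1, 3174 and 2553 in M2, 1343 and 1417 in M3 and 2094 and 2211 in M4, lowest in M3, where it fell (-1.38, and -0.98 after quantile normalization, not called). Mutyh encodes a glycosylase that removes adenine opposite oxidised guanine. Mutyh signals were 123 and 108 in E, 71.7 and 83.8 in M1, 55.8 and 63.9 in M2, 29.0 and 17.5 in M3 and 67.9 and 49.5 in M4, with M3 again lowest, and it fell there (-1.42, and -1.08 after quantile normalization, called).

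Polb, which encodes the gap-filling polymerase of base excision repair, had a different order. Its signal was 883 and 772 in E, 631 and 709 in M1, 732 and 619 in M2, 662 and 662 in M3 and 316 and 324 in M4. M4 lay well below every other line and fell (-1.29), though not after quantile normalization (-0.66). The glycosylase genes Ogg1 (0.24) and Nthl1 (-0.53) were called in no line.

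Mgmt, the only gene of direct reversal on the list, encodes the protein that takes methyl groups off guanine. Its signal was 6.8 and 13.0 in E, 42.4 and 42.6 in M1, 49.5 and 19.7 in M2, 60.1 and 30.9 in M3 and 40.6 and 10.5 in M4. Every M array but M4 replicate 2 lay above both E arrays, and the 2 arrays of M2, of M3 and of M4 were far apart from each other. The change of 0.69 ± 0.18 (adjusted p = 0.000821, limma) was below the fold limit. It was called with a pseudocount of 8 (1.25) and with median centring (1.04). In M3 it was called higher after quantile normalization (1.03) and without M3 replicate 2 (1.14). These signals lay near the 40th percentile of the arrays, which was 14.1 to 21.3.

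Mismatch repair genes were lowest in M3. Msh6 encodes a subunit that reads single mismatches. Its signal was 937 and 833 in E, 766 and 732 in M1, 686 and 456 in M2, 201 and 175 in M3 and 356 and 348 in M4, and the M3 and M4 arrays stood below all others. Msh6 fell in M3 (-2.06) and M4 (-1.25), and only the M3 call held after quantile normalization (-1.54 and -0.63). Its call in the mean contrast (-1.04 ± 0.13, adjusted p = 2.09e-09, limma) was lost on quantile scaling (-0.64), without E replicate 1 (-0.9596), without M2 replicate 2 (-0.9725) and without the whole of M3 (-0.70) or M4 (-0.9719).

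Msh3, which encodes a subunit that reads larger loops, had signals of 233 and 201 in E, 168 and 144 in M1, 224 and 139 in M2, 76.8 and 65.9 in M3 and 116 and 91.0 in M4. It fell in M3 (-1.27), and in M4 (-0.88) it was not called, but was without M4 replicate 1 (-1.01). Pms2 encodes a nuclease subunit of the pathway. The Pms2 signal was 266 and 254 in E, 142 and 162 in M1, 151 and 128 in M2, 84.3 and 88.7 in M3 and 121 and 145 in M4, with all M arrays below E. It fell in M3 (-1.30), and neither M3 call held after quantile normalization (-0.78 for Msh3 and -0.81 for Pms2).

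No end-joining gene was called against E with all arrays under the deposited scaling, and only 5 were measured. In the mean contrast 14.5% of all genes fell and 7.34% rose. In single lines 11.8% to 20.1% of all genes fell and 6.65% to 8.60% rose. By limma's unadjusted p under 0.05 alone 2, Prkdc and Xrcc4, were lower in the mean contrast and 0 higher. Over all genes these shares were 45% and 18.5%. On that criterion all 5 were lower in M4 (49.5% of all genes). In M3 3 were lower and 1 higher (44% and 17.1%). In M1 0 were lower and 1 higher (33.7% and 20.8%), and in M2 0 and 0 (35.1% and 19.6%). The Ku subunits, which together cap a broken end, had different orders across the M lines. Xrcc6 encodes Ku70. Its signal was 767 and 636 in E, 1291 and 1281 in M1, 725 and 573 in M2, 506 and 483 in M3 and 517 and 537 in M4, so both M1 arrays lay above every other array. The changes were 0.85 (M1), -0.11 (M2), -0.47 (M3) and -0.39 (M4), and after quantile normalization Xrcc6 was called higher in M1 (1.05).

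Xrcc5 encodes Ku80. Its signal was 512 and 435 in E, 389.9 and 399 in M1, 631 and 495 in M2, 687 and 605 in M3 and 221 and 235 in M4. M4 was below all other lines and M3 above both E arrays. Its changes were -0.24 (M1), 0.23 (M2), 0.42 (M3) and -0.95 (M4), and the M4 value was not called, but was without E replicate 2 (-1.06). Both subunits differed among the M lines by the limma F test (adjusted p = 4.59e-10 for Xrcc6 and 1.31e-09 for Xrcc5). After quantile normalization the call of Xrcc5 held, and that of Xrcc6 was lost because its range (0.96) was under 2-fold. The line with the most Xrcc6 signal was M1 and that with the most Xrcc5 signal was M3.

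Prkdc encodes the kinase that Ku recruits. Its signal was 142 and 127 in E, 129.5 and 130.3 in M1, 130.0 and 71.4 in M2, 74.3 and 96.8 in M3 and 81.5 and 60.2 in M4, where M2 replicate 2 stood well below M2 replicate 1. Its change was -0.40 ± 0.15 (adjusted p = 0.0165, limma), and -0.051 after quantile normalization. Lig4 and Xrcc4, the ligase and its scaffold, changed by -0.26 and -0.30, with signs that turned under all 3 other scalings. Both were lowest in M4 (-0.93 and -0.76).

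Of 11 measured recombination, crosslink repair and helicase genes, Fancc fell in all 4 lines, Brca1, Rad54l and Blm in M3, Rad52 and Fanca in M3 and M4, and 5 in no line. Fancc, Brca1 and Blm fell in the mean contrast and none rose, against 14.5% and 7.34% of all genes. After quantile normalization 1 of the 11, Fancc, fell, against 8.83% of all genes. Fancc encodes a subunit of the Fanconi core complex, which tags FANCD2 at a crosslink. Its signal was 354 and 283 in E, 47.4 and 53.6 in M1, 67.0 and 51.1 in M2, 23.7 and 11.7 in M3 and 18.3 and 24.8 in M4, far apart from E in every line. The change was -2.39 ± 0.15 (adjusted p = 9.69e-20, limma) and -2.05 after quantile normalization. In M3 and M4 its signal was near the 40th percentile of the arrays (14.1 to 14.8 there), and the change was -2.98 with a pseudocount of 8 and -1.94 with 64. Its 2 other probe sets, with mean signals of 43.5 and 46.4 in E, were not called (-0.32 and -0.49), so the falls rest on 1 probe set. With the mean of the 3 the change was -1.07, still called, though not in M1 (-0.82) or M2 (-0.86).

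Brca1 encodes a protein that promotes resection of broken ends and the loading of recombinase. Its signal was 581 and 428 in E, 393 and 321 in M1, 396 and 288 in M2, 57.8 and 55.1 in M3 and 230.1 and 242 in M4, and both M3 arrays lay far below the other 8. The fall in M3 was -2.59 (-2.12 after quantile normalization), whereas M1 (-0.46) and M2 (-0.52) were not called. M4 (-0.99) was not called, but was without E replicate 2 (-1.19) or M4 replicate 2 (-1.02). The call in the mean contrast (-1.14 ± 0.14, adjusted p = 6.92e-10, limma) rested on M3: without that line the change was -0.65. It was also lost without E replicate 1 (-0.93) and after quantile normalization (-0.74). Of 4 Brca1 probe sets, 3 were called in M3, and 1 of these, dimmer in E (133), was also called in M4 with all arrays (-1.12).

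Brca2, which encodes a mediator of homologous recombination, was called in no line. Brca2 signals were 263 and 221 in E, 268 and 259 in M1, 231 and 154 in M2, 148 and 166 in M3 and 125 and 155 in M4, and the M1 and E arrays overlapped. The change was -0.35 ± 0.14 (adjusted p = 0.0271, limma), -0.53 in M3, and its sign turned after quantile normalization (0.057) and median centring.

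Rad54l encodes the motor that helps the recombinase find its template. Its signal was 332 and 303 in E, 330.1 and 297 in M1, 296 and 189 in M2, 36.9 and 39.4 in M3 and 215 and 217 in M4, with M1 level with E and M3 far below all lines. It fell in M3, with a change of -2.31 (-1.88 after quantile normalization) and was called in no other line. A second Rad54l probe set, dimmer in E (96.8), also fell in M4 and in the mean contrast (-1.18). In M1 this probe set changed by -0.80 and the other dimmer one kept by -0.73, neither called. M1 was thus level with E on the brightest probe set only.

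Blm encodes the helicase that dissolves joined recombination intermediates. Its signal was 399 and 343 in E, 233 and 227 in M1, 206 and 158 in M2, 48.9 and 54.5 in M3 and 263 and 286 in M4. The M3 arrays stood apart from all others, and M4 was the line nearest to E. Blm fell in M3, with a change of -2.27 (-1.80 after quantile normalization). The mean contrast (-1.05 ± 0.13, adjusted p = 2.06e-09, limma) was not called without M3 (-0.64), without E replicate 1 (-0.9501) or after quantile normalization (-0.65). In M2 (-0.92) it was not called, but was without E replicate 2 (-1.02) or M2 replicate 1 (-1.08). Wrn, a helicase of the same family, changed by -0.21 and was called in no line.

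Fanca, another core subunit, had signals of 381 and 325 in E, 268 and 234 in M1, 251 and 216 in M2, 101 and 97.6 in M3 and 112 and 163 in M4. Its changes were -0.44 (M1), -0.54 (M2), -1.55 (M3) and -1.19 (M4), with falls in M3 and M4; the M4 call was lost without M4 replicate 1 (-0.98), and the M3 call held after quantile normalization (-1.04). In the mean contrast (-0.93 ± 0.14) it was not called, but was without E replicate 2 (-1.03) or the whole of M1 or M2.

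Rad52, which encodes a mediator of strand annealing, had signals of 164 and 168 in E, 136 and 122 in M1, 79.9 and 61.4 in M2, 46.2 and 57.9 in M3 and 50.6 and 38.5 in M4. It fell in M3 (-1.24) and M4 (-1.37), and neither call held after quantile normalization (-0.80 and -0.91). In M2 (-0.95) it was not called, but was without M2 replicate 1 (-1.08). Rad50 and Nbn, subunits of the complex that senses and trims broken ends, changed by -0.51 and -0.21. Neither was called in any line with all arrays, although Rad50 was in M4 without E replicate 2 (-1.07).

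Among checkpoint genes, the mediator and both effector kinases fell in the mean contrast, and the upstream kinases were not called there. Of 5 measured genes, Trp53bp1, Chek1 and Chek2 fell and none rose, against 14.5% and 7.34% of all genes. After quantile normalization 1 of the 5, Trp53bp1, fell, against 8.83% of all genes. Trp53bp1 encodes 53BP1, which gathers at double-strand breaks and favours end joining over resection. Its signal was 2195 and 2260.5 in E, 714 and 559 in M1, 995 and 660.1 in M2, 583 and 557 in M3 and 572 and 571 in M4, with all M arrays below E. The change was -1.75 ± 0.13 (adjusted p = 5.87e-17, limma) and -1.41 after quantile normalization. A second probe set changed by -1.72 and was called in all 4 lines, and 2 dimmer ones, with mean signals of 73.9 and 47.5 in E, were not called. With the mean of its 4 probe sets Trp53bp1 was not called in M2 (-0.86).

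Chek1 encodes Chk1, the target of ATR that restrains entry into mitosis. Its signal was 745 and 651 in E, 447 and 459.5 in M1, 367 and 363 in M2, 83.6 and 86.3 in M3 and 224 and 248.7 in M4. M3 was the lowest line, M4 the next, and no M array reached E. The changes were -0.59 (M1), -0.88 (M2), -2.64 (M3) and -1.44 (M4), with falls in M3 and M4. In the mean contrast the change was -1.39 ± 0.13 (adjusted p = 2.14e-13, limma). After quantile normalization that change was -0.98 and without M3 -0.9686, neither called, while the M3 call held (-2.14). Of its 5 probe sets, the 2 brightest were called in the mean contrast and the 3 others, with mean signals of 52.0 or less in E, were not.

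Chek2 encodes Chk2, the target of ATM. Its signal was 498 and 428 in E, 181 and 175 in M1, 279 and 214 in M2, 110.3 and 152 in M3 and 210.2 and 199 in M4. All M arrays were below E, with M3 lowest. It fell in M1 (-1.23), M3 (-1.61) and M4 (-1.06); the M4 call was lost without E replicate 1 (-0.96), and M2 (-0.83) was not called, but was without M2 replicate 1 (-1.004). The mean contrast (-1.18 ± 0.14, adjusted p = 1.41e-10, limma) was not called after quantile normalization (-0.77), where the M3 call alone held (-1.08).

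The upstream kinases changed less. Atm, which responds to double-strand breaks, had signals of 185 and 181 in E, 294 and 258 in M1, 213 and 134 in M2, 151 and 152 in M3 and 179 and 179.6 in M4, with M1 above E and the other lines overlapping or just below it. Its change was 0.044 ± 0.14 (adjusted p = 0.804, limma), and its second probe set changed by -0.41, also not called. Atr, which responds to single-stranded DNA, had signals of 324 and 257 in E, 257 and 238 in M1, 227 and 172 in M2, 267 and 254 in M3 and 121 and 129.5 in M4. It fell in M4 (-1.03), at the fold limit: the call was lost without E replicate 1 (-0.88) or M4 replicate 1 (-0.99) and after quantile normalization (-0.42).

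The second comparison asked whether the 4 mesenchymal lines differed from each other, which does not involve E. M3 was set apart by low signals of Rad54l, Brca1, Chek1, Blm, Msh6, Fancd2 and Xpa, and by a high signal of Ddb2. By limma's F test with a range of at least 2-fold, 17 of 43 members differed among the M lines (39.5%), against 22.4% of all genes. M3 was the lowest line for 12 of the 17, M4 for 4 and M1 for 1. After quantile normalization 9 of 43 were called, against 18.3% of all genes, and all 9 were among the 17: Rad54l, Brca1, Chek1, Blm, Msh6, Ddb2, Xpa, Xrcc5 and Fancd2. Without the whole of M3, 6 were called, and the share over all genes was not taken for that setting.

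Rad54l had the widest range among the M lines, 2.30 (adjusted p = 1.02e-15), by limma's F test, followed by Brca1 at 2.13 (3.71e-15), Chek1 at 2.05 (5.7e-15), Blm at 1.87 (2.98e-13) and Msh6 at 1.83 (1.26e-12). Fancd2, the Fanconi protein that the core complex tags, had signals of 94.8 and 104 in E, 189 and 139.6 in M1, 136 and 97.6 in M2, 31.1 and 40.3 in M3 and 113 and 112 in M4, so both M3 arrays were below and both M1 arrays above E. Against E, Fancd2 was not called in M3, but was without E replicate 1 (-1.01) or M3 replicate 2 (-1.06). Its call among the M lines was lost with the mean of its 4 probe sets (range 0.81). Of the 17, Apex1, Lig4, Msh3, Polb and Rad52 had ranges of 1.00 to 1.14, and each lost its call when 1 array of M2, M3 or M4 was left out. Without M2 replicate 1 the calls of Lig4, Msh3 and Polb were lost; without M3 replicate 1 that of Apex1, without M3 replicate 2 that of Msh3, without M4 replicate 1 that of Polb and without M4 replicate 2 that of Rad52. Ddb1, Fancc, Mutyh and Nbn were not called with all arrays, but each was when some array was left out.

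Set against the mean of the other 3 M lines, 7 members were lower in M3 (16.3%), against 4.70% of all genes, and Ddb2 was higher (1.92% of all genes). After quantile normalization the same 7 were lower, against 3.79% of all genes, and Ddb2 was still higher (2.82%). The 7 were Xpa, Msh6, Brca1, Rad54l, Fancd2, Blm and Chek1, and all 8 calls held without any one array. With the mean of probe sets Chek1 (-0.94), Fancd2 (-0.58) and Ddb2 (0.98) were not called, and with a pseudocount of 64 Xpa (-0.92), Fancd2 (-0.96) and Ddb2 (0.90) were not, which leaves Msh6, Brca1, Rad54l and Blm called under both. In M1, Msh6, Xrcc6, Rad54l and Chek1 were higher than in the other M lines (3.66% of all genes were) and 0 were lower (1.69%); after quantile normalization 0 were higher (1.99%) or lower (2.33%). In that comparison Chek1 and Rad54l also lost their calls with the mean of probe sets (0.70 and 0.63) and with a pseudocount of 64 (0.95 and 0.88), Msh6 lost its call without M2 replicate 2 and Rad54l without that array or M1 replicate 1. M2 had no call in either direction in limma (1.95% of all genes were higher and 0.532% lower, and 1.11% and 0.822% after quantile normalization). At limma's unadjusted p under 0.05, 23 members were higher in M2 and 1 lower, against 30% and 6.14% of all genes. Brca1 was not called in M2, but was higher without M2 replicate 2 (1.03). M4 had 1 lower, Xrcc5, against 4.01% of all genes, and 0 higher, against 1.52%. After quantile normalization it had 0 lower, against 2.10%, and 1 higher, Blm, against 2.39%. Leaving out 1 array made Brca1 higher in M1 (1.04, without M1 replicate 2) and Polb lower in M4 (-1.01 to -1.03).

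**Figure D5:**
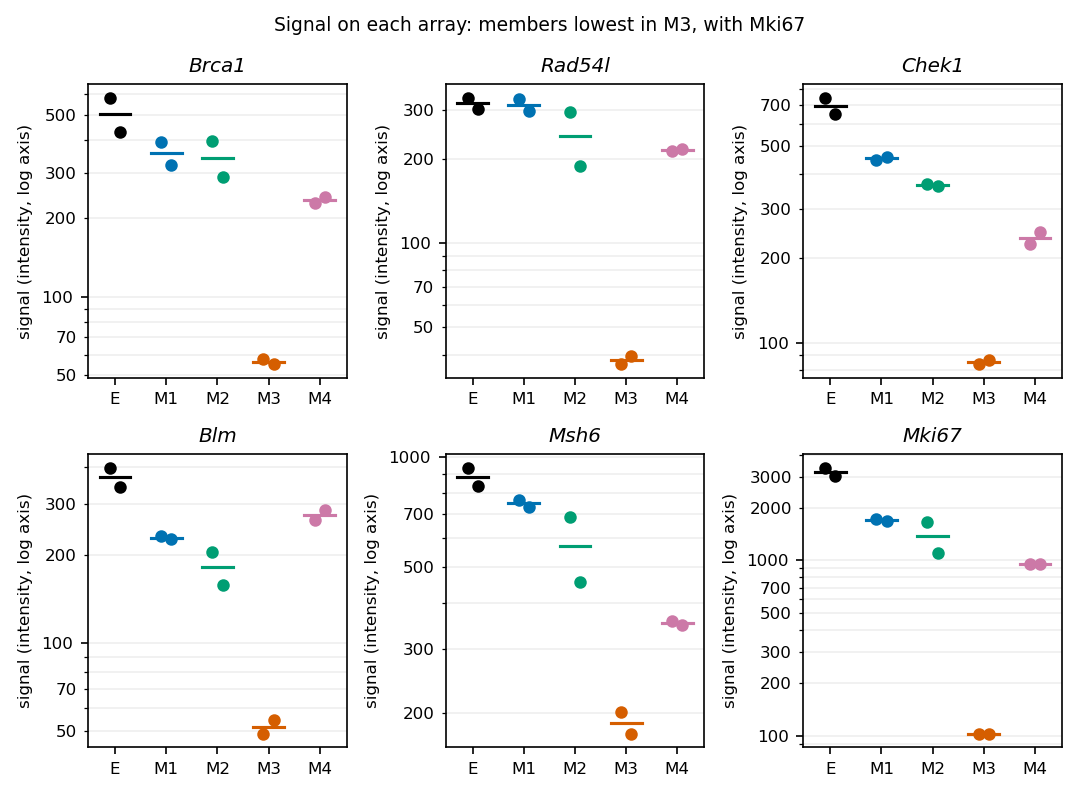
Signal of Brca1, Rad54l, Chek1, Blm and Msh6, and of the proliferation marker Mki67, on each of the 10 arrays (points; bars are line means), on a log axis of intensity. In all 6 panels both M3 arrays lie below the other 8 arrays.

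Genes of proliferation moved with the M3 values. Of 27 measured genes of DNA synthesis and mitosis, 26 fell in M3 against E, against 19.8% of all genes, with a median change of -3.19. After quantile normalization 26 fell again, against 11.7% of all genes, with a median of -2.74. The count was 1 in M1 (12.5% of all genes fell there), 2 in M2 (11.8%) and 4 in M4 (20.1%). By limma's adjusted p under 0.05 without a fold minimum, 12, 21 and 23 of the 27 were lower in M1, M2 and M4. By limma's unadjusted p under 0.05 alone 12, 23 and 23 were lower there, against 33.7%, 35.1% and 49.5% of all genes. On the same criterion 4, 2 and 0 were higher, against 20.8%, 19.6% and 13.4%. Mki67, the nuclear marker of cycling cells, had signals of 3387 and 3045 in E, 1732 and 1676 in M1, 1665 and 1102 in M2, 102 and 102 in M3 and 959.5 and 949.7 in M4, a change of -4.60 ± 0.15 in M3. Pcna, the sliding clamp of replication, had 12407 and 12188 in E, 9339.5 and 9164 in M1, 8298 and 7833 in M2, 3742 and 3739.8 in M3 and 7229.5 and 7641 in M4, a change of -1.71 ± 0.09 in M3. In the mean contrast 17 of the 27 fell and 0 rose by limma, against 14.5% and 7.34% of all genes. At limma's unadjusted p under 0.05, 26 were lower and 0 higher, against 45% and 18.5% of all genes. After quantile normalization 6 fell and 0 rose, against 8.83% and 9.64%. The lowest on the deposited scale were Mki67 (-2.11), Tk1 (-1.86), Rrm2 (-1.64) and Ccnb2 (-1.46). The part of proliferation in the lower recombination and checkpoint signals of M3 was not tested.

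A list of 78 other repair genes, of which 71 were measured, gave the wider pathway. In the mean contrast 11 fell and 1 rose, against 14.5% and 7.34% of all genes. The median change was -0.51, against -0.21 over all genes. After quantile normalization 2 fell and 2 rose, against 8.83% and 9.64% of all genes. Of the 71, 29 fell in M3 (19.8% of all genes did), 4 in M1 (12.5%), 3 in M2 (11.8%) and 14 in M4 (20.1%). Rises numbered 3 in M1 (8.60% of all genes), 1 in M2 (8.58%), 0 in M3 (7.70%) and 1 in M4 (6.65%). After quantile normalization 18 fell in M3 (11.7% of all genes did), 1 in M1 (9.40%), 2 in M2 (8.75%) and 4 in M4 (9.51%). There 5 rose in M1 (10.2% of all genes), 1 in M2 (10.1%), 0 in M3 (12.1%) and 4 in M4 (10.4%). Those that changed most were Ung, the glycosylase that removes uracil (-2.33 ± 0.13), Alkbh2, a demethylase of alkylated bases (-1.41 ± 0.14), Rnf168, a ubiquitin ligase that prepares chromatin for 53BP1 (-1.35 ± 0.13), and Clspn, the mediator of ATR signalling to Chk1 (-1.34 ± 0.13). Ung was at 904 and 760.5 in E, 195 and 177 in M1, 209 and 181 in M2, 35.3 and 36.7 in M3 and 214 and 236 in M4 and fell in all 4 lines. The gene that rose was Polm, an end-joining polymerase (1.13 ± 0.13, adjusted p = 1.47e-10, limma). Its signal was 99.6 and 106 in E, 251 and 254 in M1, 442 and 368 in M2, 148 and 157 in M3 and 306 and 300.5 in M4, with all M arrays above E.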

How the data were processed

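Total RNA of 10 samples, 2 of each of 5 cell lines, was hybridised to Affymetrix mouse arrays. The deposited values are linear intensity per probe set, made with GCOS 1.3 per the submitters' processing notes; the sources used here name no signal algorithm or scaling target. No depth applies: 2 arrays a line limit the precision. Of 45101 probe sets, 64 controls, 932 with several symbols and 9160 with none were left out, 27422 of the other 34945 passed the 40th percentile of their array on at least 2 arrays, and the brightest was taken for each of 14840 genes. Analysis used log2(intensity + 32) with limma 3.58.1 in R 4.3.3 (lmFit, eBayes with trend, 1 mean per line, all 10 arrays) and Benjamini-Hochberg adjustment over all genes. E was compared with the mean of M1 to M4 and with each of them, each M line was compared with the mean of the other 3, and an F test was run among the M lines. Simulated data (200 of 14840 genes changed) gave 100 of 100 calls at a log2 change of 1.5 and 100 of 100 at 3, with 0 false calls. The simulated noise was independent on each array and sized from this fit, without differences of array scale or between lines. It checked the working of the code and cannot size the false calls in these data. Replicate numbers did not pair the samples: deviations of same-numbered arrays correlated at -0.07 to 0.06 over 10 pairs.

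The members and gene lists were chosen with earlier results of these data known. Members named with a value on every array were those called in the mean contrast or in any line, the 10 with the smallest F-test p, and 16 core genes whatever their result; the rest are given by change and count. Values for a few further members and settings were added where a call changed. Motif matches used RefSeq promoters on GRCm38.p6. Alternatives were other scalings, pseudocounts, filters, probe-set rules, a replicate block, no trend, left-out arrays and lines, and 5 line means.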

Additional observations from a re-analysis of the deposited data

Results flagged for a closer look

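For Xpa, Xrcc5, Xrcc6 and Fancd2, at least 1 M line had both arrays above both E arrays and at least 1 other had both below, and limma's F test among the M lines was passed. Xpa, the lesion scaffold, had log2 changes against E of 0.48 (M1), 0.64 (M2), -0.78 (M3) and 0.095 (M4) (adjusted p = 1.1e-09, limma F test). Xrcc5, which encodes Ku80, had -0.24 (M1), 0.23 (M2), 0.42 (M3) and -0.95 (M4) (adjusted p = 1.31e-09, limma F test), and Xrcc6, which encodes Ku70, had 0.85 (M1), -0.11 (M2), -0.47 (M3) and -0.39 (M4) (adjusted p = 4.59e-10, limma F test). Both M4 arrays lay below E for both Ku genes, while M1 was above E for Xrcc6 and M3 for Xrcc5. After quantile normalization the Xrcc6 changes were 1.05 (M1), 0.15 (M2), 0.082 (M3) and 0.24 (M4), so no line mean was below E. Its call among the M lines was also lost there. Fancd2, the target of the Fanconi core complex, had 0.57 (M1), 0.17 (M2), -0.96 (M3) and 0.14 (M4) (adjusted p = 2.46e-09, limma F test). None of these 16 changes was called against E under the deposited scaling.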

How the results depend on the processing

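The falls of Ercc1, Lig3 and Trp53bp1 in the mean contrast kept their call under all alternatives run, and that of Fancc under all but the filter on all 10 arrays, which put a dimmer probe set in its place (-0.32). The count of 11 lower members became 4 after quantile normalization, 5 with hybridization controls or median centring, 17 with a pseudocount of 8, 7 with 64, 4 with 5 line means and 7 to 13 without 1 array (7 without E replicate 1). The count of 0 higher became 1 with median centring or a pseudocount of 8. In M1 0 higher became 1 (quantile, pseudocount 8) or 2 (median centring), and 8 lower became 5 (quantile, median centring). In M2 0 higher became 1 with a pseudocount of 8, and 5 lower became 3 with the mean of probe sets and 4 to 9 without 1 array (9 without M2 replicate 1). In M3 0 higher became 1 under each of the 3 other scalings and with a pseudocount of 8, and was 0 to 1 without 1 array (1 without M3 replicate 2); 18 lower became 11 with median centring. In M4 15 lower became 5 under each of the 3 other scalings. The F test's 17 became 9 (quantile), 10 (hybridization controls), 11 (median centring, mean of probe sets) and 6 without M3. Without 1 array, the other array of that line was assumed to vary like those of other lines. Of 46 calls in single lines, 38 held without any one array. The replicate block left the count of the mean contrast at 11 and changed no call of it; same-numbered arrays share only a number.

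Signs turned for members that were not called in the mean contrast. After quantile normalization the log2 changes were Ercc4 0.37, Parp2 0.018, Xrcc4 0.12, Xrcc5 0.28, Xrcc6 0.38, Lig4 0.11, Brca2 0.057, Nbn 0.20, Fancd2 0.30, Wrn 0.094. With hybridization controls they were Ercc4 0.27, Xrcc4 0.0044, Xrcc5 0.19, Xrcc6 0.30, Lig4 0.014, Nbn 0.096, Fancd2 0.23, Wrn 0.027, and with median centring Ercc4 0.34, Xrcc4 0.058, Xrcc5 0.22, Xrcc6 0.33, Lig4 0.094, Brca2 0.0069, Nbn 0.15, Fancd2 0.33, Wrn 0.14. Fancd2 was 0.00076 with a pseudocount of 64 and Atm -0.18 with the mean of probe sets. Without 1 array the ranges were -0.24 to 0.21 for Ercc4, -0.16 to 0.10 for Xrcc6, -0.077 to 0.030 for Fancd2 and -0.027 to 0.12 for Atm. Without M1 the values were Xpa -0.015, Atm -0.11, without M2 Xpa -0.069, without M3 Ercc4 0.089, Xrcc6 0.12, Fancd2 0.29 and without M4 Ercc4 0.034, Xrcc5 0.14, Xrcc6 0.090. The cause was not tested. Signals near the 40th percentile (Mgmt, and Fancc in M3 and M4) limit how well a change can be sized.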

Other observations

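Targets of p53, the transcription factor that answers DNA damage, gave a mixed picture. Of 21 measured on a list of 22 that also holds Ddb2 and Xpc, 6 fell in the mean of the M lines and 2 rose. Over all genes 14.5% fell and 7.34% rose. After quantile normalization 3 fell and 2 rose, against 8.83% and 9.64% of all genes. In M4 10 fell and 0 rose by limma, against 20.1% and 6.65% of all genes. At limma's unadjusted p under 0.05, 18 were lower in M4 and 2 higher, against 49.5% and 13.4% of all genes. After quantile normalization 4 fell and 2 rose in M4, against 9.51% and 10.4%. In M3 4 fell and 5 rose, against 19.8% and 7.70%.

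Perp, a membrane protein of desmosomes and apoptosis, had signals of 4024 and 3719 in E, 1878 and 1951 in M1, 1473 and 1164 in M2, 1266 and 1339 in M3 and 89.3 and 92.3 in M4. M4 lay far below all other lines, and the change in the mean contrast was -2.27 ± 0.11 (adjusted p = 5.05e-23, limma). Fas, the death receptor, had 144 and 144 in E, 360.2 and 372 in M1, 798 and 649 in M2, 541 and 556 in M3 and 177 and 197 in M4, above E on every M array, and rose by 1.32 ± 0.13 (adjusted p = 1.06e-12, limma). Cdkn1a, which encodes the p21 inhibitor of the cell cycle, had 4303 and 4307 in E, 2435 and 2145 in M1, 2893 and 1653 in M2, 2689.9 and 2478 in M3 and 1958 and 1911 in M4, a change of -0.94 ± 0.11 that was not called. Sesn2, a stress-induced regulator of growth signalling, was called higher (1.05 ± 0.16), but its E arrays read 216 and 73.6, and E replicate 1 overlapped the M2 and M4 arrays.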
